A study of Mus musculus with 9 samples.

Results

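Collagens and matrix proteoglycans were followed across 9 mouse libraries of ribosome-depleted total RNA. Members were taken by name alone: every listed gene whose symbol has the form of a collagen chain (44 genes), and 15 named proteoglycans, link proteins and matrix glycoproteins. That gave 59 of 23360 listed genes. Of these, 42 were expressed highly enough to be tested (deposited FPKM, fragments scaled to gene length and library size, of at least 1 in at least 3 libraries). The other 17 were not tested in the main fit and are described at the end. Of the tested members, 4 reached that minimum in tumours alone (Col5a3, Col10a1, Col11a1 and Col28a1) and 2 in cerebellum alone (Hapln2 and Hapln4). Fmod, Col11a2, Col17a1 and Col19a1 reached it in some tumour libraries, but met the minimum only with the cerebellum libraries added. The entry of all these members into the test drew on the side where they are high.

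A1G tumours (3 libraries) were primary medulloblastomas from mice of the genotype Math1-cre;A1G;Ptch1+/-, and Ptch1 tumours (3 libraries) were primary medulloblastomas from Ptch1+/- mice. Both kinds of tumour animal were of mixed strain and carried 1 disrupted copy of Ptch1, the receptor that restrains Hedgehog signalling. Math1-cre is a Cre recombinase under the control of Math1 (Atoh1), a transcription factor of granule neuron progenitors. The study describes the A1G tumours as driven by ATOH1 together with aberrant Hedgehog signalling, and the labels do not spell out A1G further. The comparison tissue was whole cerebellum of wild-type adult C57BL/6 mice (3 libraries), so strain and tissue cannot be told apart in a comparison with tumours. Ages of the tumour animals were not given in the sources used here. The labels call the libraries of a group replicates without saying that they came from separate animals, so the p-values below measure the spread between these libraries, which may be technical.

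The libraries held 2350941 to 9290237 fragments assigned to genes, and the members took 0.142% to 0.216% of them. Levels are in CPM, fragments scaled to a common library size, after TMM scaling over all 9 libraries, and n is 3 libraries per group. The tissue labels matched the marker genes: 8 of 8 markers of granule neuron progenitors and Hedgehog targets were higher in tumours, and all 10 oligodendrocyte, 6 Purkinje cell, 6 interneuron and 6 mature granule neuron markers were lower. A1G tumour replicate 2 stood apart, with a summed progenitor and Hedgehog marker level of 2685 CPM against 4647 to 6997 CPM in the other tumours. Cerebellum replicate 1 held 2742 CPM of choroid plexus markers, against 63.6 and 116 CPM in the other cerebellum libraries. Where leaving out either library changed a call in tumours against cerebellum, the value without it is given with the gene.

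The extracellular matrix of brain differs from that of most organs. Its bulk is a mesh of hyaluronan, a long sugar chain made at the cell surface, to which the lecticans bind. Lecticans are chondroitin sulfate proteoglycans (aggrecan, brevican, neurocan and versican), link proteins of the Hapln family clamp them to hyaluronan, and tenascins cross-link their other ends. Fibril-forming collagens are scarce in brain tissue itself and are made mostly in the meninges and around vessels, while collagen IV forms the sheet of the vascular basement membrane. In the developing brain the mesh is known for its neurocan and versican, and in the adult for its brevican, tenascin-R and link proteins, which assemble around neurons and at nodes of myelinated axons.

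The summed level of the 59 members was 1405 to 2056 CPM in tumours and 1849 to 2111 CPM in cerebellum. A1G replicate 1, at 2056 CPM, lay within the cerebellum range and the other 5 tumours lay below it; this sum was not tested. Of the 42 tested members, 9 were higher in tumours (21.4%; 20.7% of all 14337 tested genes were called higher) and 12 were lower (28.6%; 21.5% of all tested genes were called lower). These shares lie near those of all tested genes, so the count is not a result about the members. The median log2 fold change was -0.04 over the tested members and 0.01 over all tested genes. In 6 tested members every tumour library lay above every cerebellum library (18.5% of all tested genes did so), and in 12 every tumour library lay below (19.7% of all tested genes).

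Members of a class did not always move the same way. The 2 tested link proteins fell, of the 3 tested lecticans 2 rose and 1 fell, and of the 9 tested fibril-forming collagens 2 rose and 4 fell. The collagen IV chains Col4a1 and Col4a2 rose, no tested chain of collagen VI passed the test, and of the 4 small leucine-rich proteoglycans only Fmod passed, downward. The number of members called higher changed when 1 library was left out. It was 5 without cerebellum replicate 1, the library with choroid plexus markers, and 6 without cerebellum replicate 2. Without A1G tumour replicate 2 it was 11, and the lower count stayed at 12 in these 3 fits. Shares over all tested genes are not given for these fits, so the counts are not a result about the members.

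**Figure D1:**
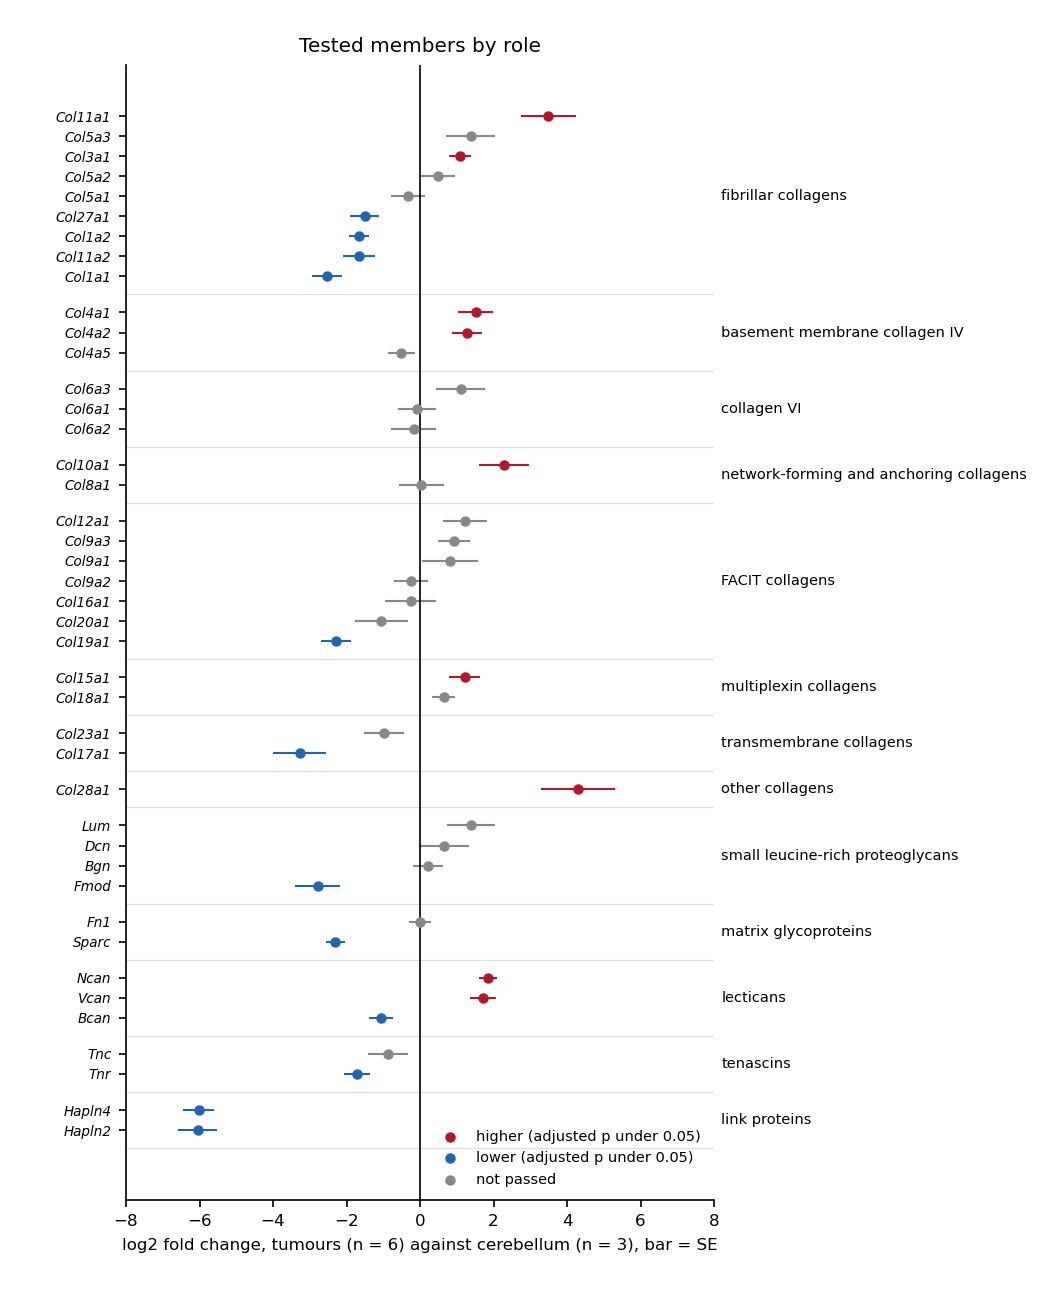
Log2 fold change of each of the 42 tested members, mean of A1G and Ptch1 tumours (6 libraries) against cerebellum (3 libraries), grouped by role, with bars for 1 standard error. Red points (9) passed the test upward, blue points (12) downward and grey points (21) did not pass; the link proteins lie near -6 and Col28a1 and Col11a1 farthest to the right.

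Among the lecticans, neurocan and versican were higher in every tumour library than in every cerebellum library, and brevican was lower. Ncan encodes neurocan, a lectican of developing brain (mm10 chr8:70093085-70120873, minus strand). It was measured at 151, 203 and 172 CPM in the A1G tumours, 142, 154 and 188 CPM in the Ptch1 tumours, and 38.6, 47.1 and 54.1 CPM in cerebellum. All 6 tumour libraries lay within a narrow band well above cerebellum (log2 1.85, SE 0.24, adjusted p = 6.06e-05 by the quasi-likelihood test of edgeR, adjusted after Benjamini and Hochberg across the 14337 genes, the test used throughout). The highest tumour library held 1.42 times the lowest, the smallest such spread of the 39 members with fragments in every tumour library.

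Vcan encodes versican, the largest lectican (chr13:89655312-89742509, minus strand). Its level was 351, 158 and 296 CPM in the A1G tumours, 473, 208 and 254 CPM in the Ptch1 tumours and 64.3, 102 and 96.0 CPM in cerebellum. No tumour library reached down to the cerebellum values (log2 1.72, SE 0.35, adjusted p = 0.00179). The tumours varied more in Vcan than in Ncan, with A1G replicate 2 lowest and Ptch1 replicate 1 highest.

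Bcan encodes brevican, the most abundant lectican of adult brain (chr3:87987531-88000230, minus strand). It was read at 90.7, 70.2 and 64.2 CPM in the A1G tumours, 28.2, 83.0 and 29.9 CPM in the Ptch1 tumours and 102, 116 and 156 CPM in cerebellum. All tumour libraries lay below all cerebellum libraries, with the closest pair at 90.7 and 102 CPM (log2 -1.06, SE 0.33, adjusted p = 0.0208). Without cerebellum replicate 3 the adjusted p was 0.0946. Acan, which encodes aggrecan, did not reach the minimum for the test, at 0.112 to 4.42 CPM in tumours and 3.94 to 7.19 CPM in cerebellum. Under the alternative filter filterByExpr of edgeR, which let it be tested, it was called lower (log2 -1.87, adjusted p = 0.0416). In the edgeR fit without a minimum it did not pass (log2 -1.79, adjusted p = 0.0607), and its libraries overlapped.

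The 300 bases around the start sites of the lecticans that rose are shown for comparison (RefSeq, GRCm38.p6, the assembly of mm10; 250 bases before the start and 50 after, 5′ to 3′ on the gene's strand). The windows are chr8:70120795-70121094 for Ncan and chr13:89742463-89742762 for Vcan, both on the minus strand. Capitals mark GC boxes, GGGCGG on either strand.
Ncan: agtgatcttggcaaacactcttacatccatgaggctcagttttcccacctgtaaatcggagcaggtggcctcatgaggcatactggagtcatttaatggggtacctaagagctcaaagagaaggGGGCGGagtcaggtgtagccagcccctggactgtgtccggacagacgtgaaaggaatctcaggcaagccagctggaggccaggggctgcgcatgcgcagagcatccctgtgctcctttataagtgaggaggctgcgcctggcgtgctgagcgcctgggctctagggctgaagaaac
Vcan: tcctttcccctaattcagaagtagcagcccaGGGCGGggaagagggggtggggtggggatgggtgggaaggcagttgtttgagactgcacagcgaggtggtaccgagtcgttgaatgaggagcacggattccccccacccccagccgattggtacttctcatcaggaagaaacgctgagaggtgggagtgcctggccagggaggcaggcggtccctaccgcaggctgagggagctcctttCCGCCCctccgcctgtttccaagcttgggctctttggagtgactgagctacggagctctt
The Ncan window held 1 GC box and 1 TATAAA (either strand), and the Vcan window held 2 GC boxes and no TATAAA. A GC box stood in 35.7% of all 32851 RefSeq promoter windows, and in 5 of the 9 members that rose and 4 of the 10 members that fell and have a window. TATAAA on either strand stood in 13.6% of all windows, in 3 of the 9 and in 2 of the 10. The 9-letter core GACCACCCA, known as a Gli binding motif, was in 0.253% of all windows and in none of the 46 members with a window. These letters are a description of the windows only.

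Per unit of transcript length, the make-up of the lectican pool differed between tumours and cerebellum. In deposited FPKM, which corrects for gene length within a library, Bcan made up 68.9% to 75.6% of the summed lectican level in cerebellum and 12.4% to 40.1% in tumours. Ncan made up 10.6% to 11.7% in cerebellum and 24.7% to 45.3% in tumours, and Vcan 12.5% to 18.4% and 22.3% to 60.5%. The ranges of the 3 genes did not overlap between tumours and cerebellum. Which lectican led differed among tumours: Vcan in A1G replicates 1 and 3 and Ptch1 replicate 1, Ncan in A1G replicate 2 and Ptch1 replicate 3, and Bcan in Ptch1 replicate 2. Acan stayed at or under 1.36% in every library.

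**Figure D2:**
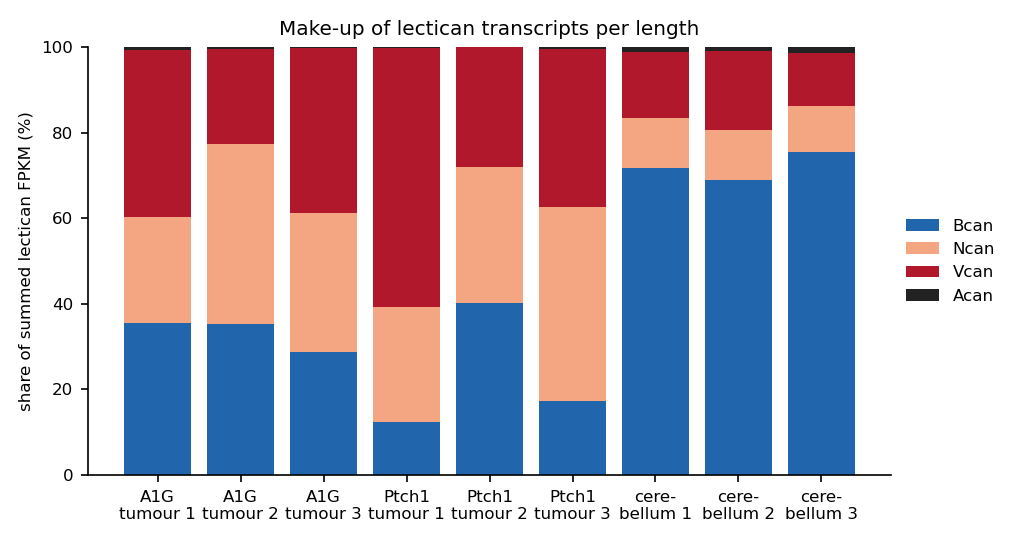
Share of each lectican in the summed lectican FPKM (%) of each library, 1 bar per library and colours for the genes. Bcan fills 68.9% to 75.6% of the 3 cerebellum bars and at most 40.1% of the 6 tumour bars.

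Link proteins gave the largest falls of any tested member, and both tested ones reached the minimum for the test in cerebellum alone. Hapln4 encodes brain link protein 2, known from perineuronal nets of the cerebellum (chr8:70083457-70090862, plus strand). It was at 1.11, 3.12 and 0.411 CPM in the A1G tumours, 1.37, 0.674 and 1.15 CPM in the Ptch1 tumours and 59.6, 82.7 and 113 CPM in cerebellum. The highest tumour value was 3.12 CPM and the lowest cerebellum value 59.6 CPM (log2 -6.03, SE 0.42, adjusted p = 6.69e-07).

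Hapln2 encodes brain link protein 1, known from nodes of Ranvier in white matter (chr3:88021750-88027583, minus strand). Its level was 0.737, 0.936 and 1.23 CPM in the A1G tumours and 28.4, 23.4 and 28.4 CPM in cerebellum. In Ptch1 tumours it was 0.458 CPM in replicate 1 and without a fragment in replicates 2 and 3, where the depth allows up to 0.337 and 1.15 CPM (3 fragments). Again no tumour library came near the cerebellum values (log2 -6.05, SE 0.54, adjusted p = 3.91e-06). Hapln1, known from cartilage and perineuronal nets, did not reach the minimum for the test. It lay at 0 to 1.80 CPM in tumours and at 4.46, 5.47 and 8.19 CPM in cerebellum, and a fit without the minimum gave a log2 of -3.17 and an adjusted p of 0.00273.

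Ncan and Hapln4 are neighbours on chromosome 8, tail to tail with 2222 bases between them and no other protein-coding gene, and they moved in opposite directions. In FPKM the ratio of Ncan to Hapln4 was 0.232 to 0.314 in cerebellum and 31.5 to 203 in tumours. Bcan and Hapln2 are neighbours on chromosome 3, on the same strand 21519 bases apart, and both were lower in tumours. Vcan and Hapln1 lie tail to tail on chromosome 13 with 43659 bases between them, the former higher in tumours and the latter at low values there.

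Tenascins cross-link lecticans. Tnr encodes tenascin-R, made by oligodendrocytes and some neurons (chr1:159523769-159931729, plus strand). It was measured at 81.8, 31.8 and 82.2 CPM in the A1G tumours, 42.6, 16.1 and 17.6 CPM in the Ptch1 tumours and 120, 128 and 150 CPM in cerebellum. Each tumour library was below each cerebellum library (log2 -1.71, SE 0.35, adjusted p = 0.00181). Tnc encodes tenascin-C, a tenascin of developing tissue and Bergmann glia, and its values overlapped: 40.9, 4.05 and 35.4 CPM in the A1G tumours, 22.0, 53.9 and 14.2 CPM in the Ptch1 tumours, and 52.5, 59.6 and 44.9 CPM in cerebellum. It did not pass the test (log2 -0.88, SE 0.54, adjusted p = 0.211), and A1G tumour replicate 2 lay lowest.

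**Figure D3:**
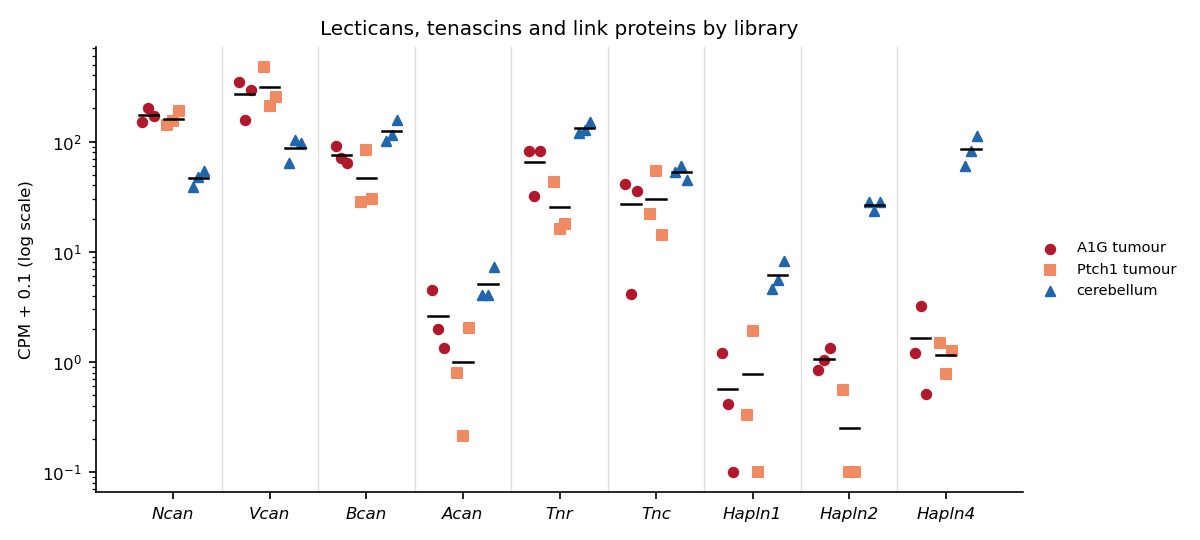
CPM plus 0.1 on a log scale for the lecticans, tenascins and link proteins, 1 point per library, with a line at each group's mean. Ncan and Vcan lie higher in all 6 tumour libraries than in cerebellum, Bcan, Tnr, Hapln2 and Hapln4 lie lower, and Tnc overlaps; Acan and Hapln1 were not tested in the main fit.

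Markers of several cell types moved with these genes. The summed level of 10 oligodendrocyte markers was 70.1 to 443 CPM in tumours and 7832 to 8400 CPM in cerebellum, with 10 of 10 lower and Opalin without a fragment in any tumour. For 6 Purkinje cell markers the sums were 163 to 637 and 7695 to 9916 CPM, and for 6 interneuron markers 8.93 to 79.8 and 1104 to 1232 CPM, with Slc6a5 without a fragment in any tumour. Of 12 astrocyte and Bergmann glia markers 8 were lower and 1 higher, at summed levels of 1253 to 2744 and 4507 to 5429 CPM. Their part in the falls of Hapln2, Hapln4, Tnr, Bcan and Sparc was not tested. In bulk tissue, fewer cells of a type and less RNA per cell cannot be told apart.

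Sparc, a collagen-binding glycoprotein that loosens cell adhesion and is abundant in Bergmann glia, was the most highly expressed member per length in every group. Its mean deposited FPKM was 63.9 in A1G tumours and 51.7 in Ptch1 tumours, and 277 in cerebellum, where the authors scaled FPKM separately. On the common CPM scale it was at 156, 102 and 144 in A1G tumours, 144, 122 and 62.1 in Ptch1 tumours and 590, 590 and 617 in cerebellum. The cerebellum libraries lay close together and far above the tumours (chr11:55394500-55423183; log2 -2.31, SE 0.26, adjusted p = 2.38e-05). Fn1, which encodes fibronectin, the adhesive glycoprotein that integrins bind, was at 66.4 to 139 CPM in tumours (median 100.07) and at 68.3, 84.8 and 153 CPM in cerebellum. Its log2 difference was 0.00 with an SE of 0.29, and the groups overlapped. Fn1 shares 292 exon bases with Apol7d on the opposite strand.

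Fibril-forming collagens did not all move the same way. Collagen I, the main fibril of skin, bone and meninges, is built from the chains of Col1a1 and Col1a2, and both were lower in every tumour. Col1a1 (chr11:94936224-94953042) was at 16.2, 6.86 and 6.99 CPM in the A1G tumours, 9.62, 29.7 and 6.90 CPM in the Ptch1 tumours and 64.6, 85.7 and 68.9 CPM in cerebellum (log2 -2.53, SE 0.42, adjusted p = 3.98e-04). Ptch1 tumour replicate 2 was the highest tumour library and still lay under the cerebellum range. Col1a2 (chr6:4504814-4541544) was at 20.3, 17.5 and 24.7 CPM in the A1G tumours, 10.3, 11.0 and 19.9 CPM in the Ptch1 tumours and 54.4, 52.9 and 50.9 CPM in cerebellum (log2 -1.65, SE 0.27, adjusted p = 3.62e-04).

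The collagen I triple helix takes its chains in a fixed proportion, and the RNA ratio can be read per length. The FPKM ratio of Col1a1 to Col1a2 was 1.31 to 1.78 in cerebellum and 0.311 to 2.96 in tumours. Ptch1 tumour replicate 2 had the highest ratio and A1G tumour replicate 3 the lowest, so the tumours surrounded the cerebellum range on both sides.

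Collagen III, which shares fibrils with collagen I in vessel walls and soft tissue, went the other way. Col3a1 (chr1:45311538-45349706) was at 78.5, 50.8 and 59.2 CPM in the A1G tumours, 69.6, 41.3 and 64.0 CPM in the Ptch1 tumours and 35.5, 31.3 and 18.2 CPM in cerebellum. Every tumour library lay above every cerebellum library (log2 1.10, SE 0.30, adjusted p = 0.0105). Its neighbour Col5a2, 24614 bases away tail to tail, did not pass the test (log2 0.49, SE 0.46, adjusted p = 0.418).

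Col11a1 encodes a chain of collagen XI, a minor fibril component best known from cartilage (chr3:114030540-114220718). It showed the largest rise among fibril-forming collagens and the least even one, and reached the minimum for the test in tumours alone. Its level was 88.1, 4.37 and 61.3 CPM in the A1G tumours, 63.2, 47.1 and 112 CPM in the Ptch1 tumours and 6.57, 5.17 and 4.59 CPM in cerebellum. Of the tumours 5 lay far above cerebellum, and A1G replicate 2 lay below all cerebellum libraries (log2 3.49, SE 0.74, adjusted p = 0.00225). Without that library the log2 was 3.77. Pdgfra, a receptor that marks oligodendrocyte precursors, was low in the same library: 597, 112 and 589 CPM in the A1G tumours, 836, 560 and 625 CPM in the Ptch1 tumours and 38.5 to 56.7 CPM in cerebellum. Of the 6 precursor markers 3 were higher in tumours and 1 lower, with summed levels of 259 to 1054 CPM in tumours and 230 to 254 CPM in cerebellum. Pdgfra made up most of the sum in all tumour libraries but A1G replicate 2. The sum therefore does not show a shared rise of these markers. The part of precursor cells in the rise of Col11a1 was not tested.

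The other fibril-forming collagens were lower or did not pass. Col11a2, another chain of collagen XI, was at 1.57 to 7.74 CPM in tumours and 17.6, 14.6 and 8.79 CPM in cerebellum, without overlap (log2 -1.66, SE 0.43, adjusted p = 0.00773). Col27a1, a fibril-forming collagen of cartilage, was at 4.94 to 14.9 CPM in tumours and 17.9, 28.0 and 35.7 CPM in cerebellum (log2 -1.51, SE 0.38, adjusted p = 0.00723). Without cerebellum replicate 3 its adjusted p was 0.0527. Col5a1, Col5a2 and Col5a3, chains of the collagen V that starts fibrils, did not pass, with log2 values of -0.32, 0.49 and 1.38. Col5a3 passed without A1G replicate 2 (log2 1.60, adjusted p = 0.0398) and without Ptch1 replicate 2 (0.0491).

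Of the 3 tested collagen IV chains of the basement membrane, Col4a1 and Col4a2 rose and Col4a5 did not pass. Col4a1 and Col4a2 together form the common collagen IV molecule of vessels. Col4a1 was at 159, 59.3 and 69.1 CPM in the A1G tumours, 33.0, 145 and 146 CPM in the Ptch1 tumours and 39.1, 30.4 and 37.3 CPM in cerebellum. Ptch1 tumour replicate 1 lay within the cerebellum range and the other tumours above it (log2 1.51, SE 0.47, adjusted p = 0.0207). Col4a2 was at 156, 70.2 and 54.3 CPM in the A1G tumours, 52.4, 145 and 147 CPM in the Ptch1 tumours and 43.9, 35.0 and 49.5 CPM in cerebellum (log2 1.27, SE 0.40, adjusted p = 0.0232). Its tumour values all lay above cerebellum, by little in 2 libraries. The call of Col4a1 was lost in each fit without 1 cerebellum library (adjusted p 0.0518 to 0.0814), and that of Col4a2 without replicate 1 (0.0632) or replicate 2 (0.0974). In A1G tumours alone neither passed against cerebellum (adjusted p = 0.0509 for Col4a1 and 0.0733 for Col4a2).

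These genes sit head to head on chromosome 8, with start sites 21 bases apart, and their 300-base promoter windows overlap (Col4a1 chr8:11312777-11313076 on the minus strand, Col4a2 chr8:11312555-11312854 on the plus strand; RefSeq, GRCm38.p6). Capitals mark the 78 bases, chr8:11312777-11312854, that stand in both windows, on opposite strands.
Col4a1: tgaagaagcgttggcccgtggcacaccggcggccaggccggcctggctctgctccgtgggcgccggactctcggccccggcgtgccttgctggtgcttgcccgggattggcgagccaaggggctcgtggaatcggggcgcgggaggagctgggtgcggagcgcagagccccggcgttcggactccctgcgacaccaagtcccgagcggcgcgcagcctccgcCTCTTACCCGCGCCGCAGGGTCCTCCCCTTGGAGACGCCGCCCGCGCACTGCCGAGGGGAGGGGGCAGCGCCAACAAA
Col4a2: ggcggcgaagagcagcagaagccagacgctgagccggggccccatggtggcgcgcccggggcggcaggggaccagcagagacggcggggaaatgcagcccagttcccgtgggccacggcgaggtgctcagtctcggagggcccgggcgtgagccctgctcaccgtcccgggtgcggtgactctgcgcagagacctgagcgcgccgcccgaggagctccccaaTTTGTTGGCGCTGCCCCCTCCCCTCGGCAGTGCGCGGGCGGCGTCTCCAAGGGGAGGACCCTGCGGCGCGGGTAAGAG
The shared stretch holds 1 GC box, and the windows are 74.0% and 73.7% G or C against a median of 52.7% over all windows. The RNA of the pair stayed close per length: the FPKM ratio of Col4a1 to Col4a2 was 0.610 to 1.24 in tumours and 0.732 to 0.866 in cerebellum, while the level of Col4a1 varied 4.83-fold among tumours. Because their exons overlap by 22 bases and strand use in counting is not stated, a small part of the reads could be assigned to either gene.

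No endothelial or mural cell marker passed the test upward in the 6 tumours against cerebellum. Of 10 endothelial markers 0 were higher in tumours and 3 were lower (Tek, Flt1 and Eng), and their summed level was 59.1 to 176 CPM in tumours and 186 to 258 CPM in cerebellum. Of 10 mural cell markers 0 were higher and 5 were lower, at sums of 64.6 to 299 and 240 to 285 CPM. In A1G tumours alone 1 mural marker, Abcc9, was higher, with 99.2, 14 and 11.5 CPM in A1G tumours and 6.39 to 13.2 CPM in cerebellum. The sum of Col4a1 and Col4a2 divided by the endothelial sum was 1.30 to 2.45 in tumours and 0.336 to 0.436 in cerebellum, without overlap. The endothelial sums alone did not overlap either, so the ratio is not separate support for a rise. The part of vessel cells in the levels of Col4a1 and Col4a2 was not tested. Among tumours, the library lowest in collagen IV, Ptch1 replicate 1, was also lowest in endothelial markers, and the highest, A1G replicate 1, was highest in both. None of the 10 endothelial markers was without fragments on either side.

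**Figure D4:**
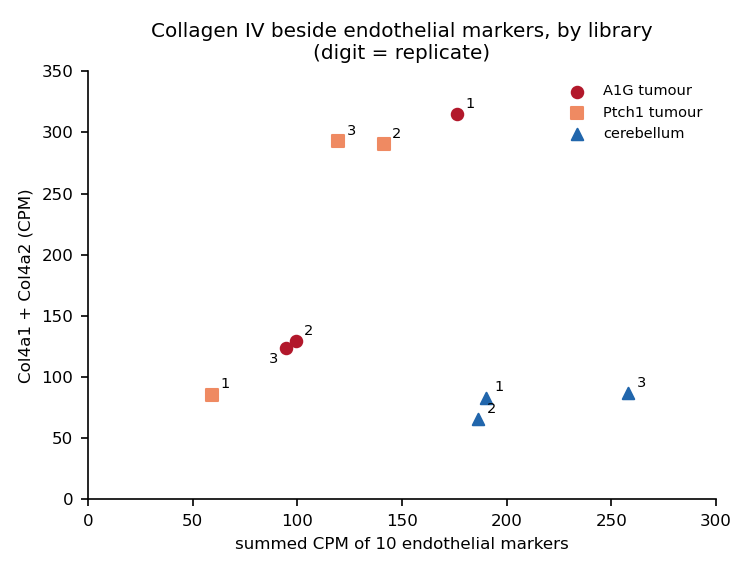
Summed CPM of Col4a1 and Col4a2 against the summed CPM of 10 endothelial markers, 1 point per library with its replicate number. All 6 tumours lie to the left of the cerebellum libraries, with endothelial markers at 59.1 to 176 CPM; 5 of them lie above cerebellum in collagen IV, and Ptch1 tumour replicate 1, at 85.4 CPM, lies within the cerebellum range.

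The other chain tested, Col4a5, an X-linked chain of kidney and some other basement membranes, was at 5.72 to 11.5 CPM in tumours and 15.5, 10.3 and 8.79 CPM in cerebellum and did not pass (log2 -0.51, SE 0.37, adjusted p = 0.290). The multiplexins Col15a1 and Col18a1 encode collagens that carry chondroitin or heparan sulfate in basement membranes. Col15a1 was at 24.0, 9.36 and 35.8 CPM in the A1G tumours, 23.4, 17.6 and 31.0 CPM in the Ptch1 tumours and 7.09, 9.73 and 13.2 CPM in cerebellum (log2 1.22, SE 0.43, adjusted p = 0.0374). Only A1G replicate 2 overlapped cerebellum, but the call was lost in 8 of 16 alternative fits, 6 of which left out 1 library (adjusted p = 0.132 without cerebellum replicate 1). Col18a1, the source of endostatin and the second most abundant member per length in A1G tumours, is described with the tumour comparison.

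Of the remaining collagens, those of collagen VI and the fibril-associated group come first. Col6a1, Col6a2 and Col6a3, whose chains form the beaded filaments of collagen VI, did not pass, with log2 values of -0.07, -0.18 and 1.11 and overlapping libraries. Among the 7 tested FACIT (fibril-associated) collagens, which decorate the surface of fibrils, only Col19a1 passed. It was at 5.90, 6.86 and 17.3 CPM in the A1G tumours, 3.89, 4.49 and 11.5 CPM in the Ptch1 tumours and 47.5, 31.0 and 37.9 CPM in cerebellum, without overlap (log2 -2.29, SE 0.41, adjusted p = 7.60e-04). Col9a3, a chain of the cartilage collagen IX and the most abundant collagen per length in Ptch1 tumours, ranged from 28.7 to 197 CPM in tumours and from 29.5 to 48.3 CPM in cerebellum (log2 0.94, SE 0.44, adjusted p = 0.104). Its values are uncertain, since it shares 234 exon bases with Tcfl5 on the opposite strand and it was the only member with fragments that were not whole. Without a filter on low values it passed (adjusted p = 0.0428). Col12a1 did not pass (log2 1.22), but did without a filter (adjusted p = 0.0328), without A1G replicate 1 (0.0476) and without Ptch1 replicate 2 (0.0333). Col20a1 had a log2 of -1.05 and did not pass.

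Among collagens of low level, Col28a1, a collagen known from peripheral nerve, stood out. It reached the minimum for the test in tumours alone. It was at 1.47, 0.312 and 3.29 CPM in the A1G tumours, 15.6, 6.74 and 4.60 CPM in the Ptch1 tumours and 0, 0.304 and 0.200 CPM in cerebellum (log2 4.31, SE 1.01, adjusted p = 0.00431). Tumours lay above cerebellum, though A1G replicate 2 by a margin smaller than 1 fragment. Col10a1, the network-forming collagen of growth plate cartilage, was at 2.06 to 5.35 CPM in tumours and 0.263, 0.912 and 0.998 CPM in cerebellum (log2 2.29, SE 0.67, adjusted p = 0.0159). It lies within Nt5dc1, which runs on the opposite strand and shares 18 exon bases, so its reads cannot be told apart from those of its host where strand was not counted. Col10a1 too reached the minimum in tumours alone, and without cerebellum replicate 1 its adjusted p was 0.0629. Col17a1, a transmembrane collagen of hemidesmosomes, was at 0 to 5.35 CPM in tumours and 7.09, 9.43 and 7.79 CPM in cerebellum, without overlap (log2 -3.28, SE 0.73, adjusted p = 0.00322). The transmembrane Col23a1 (log2 -0.99) and the vessel-wall collagen Col8a1 (log2 0.04) did not pass; without Ptch1 replicate 1 Col23a1 did (log2 -1.54, adjusted p = 0.0278).

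**Figure D5:**
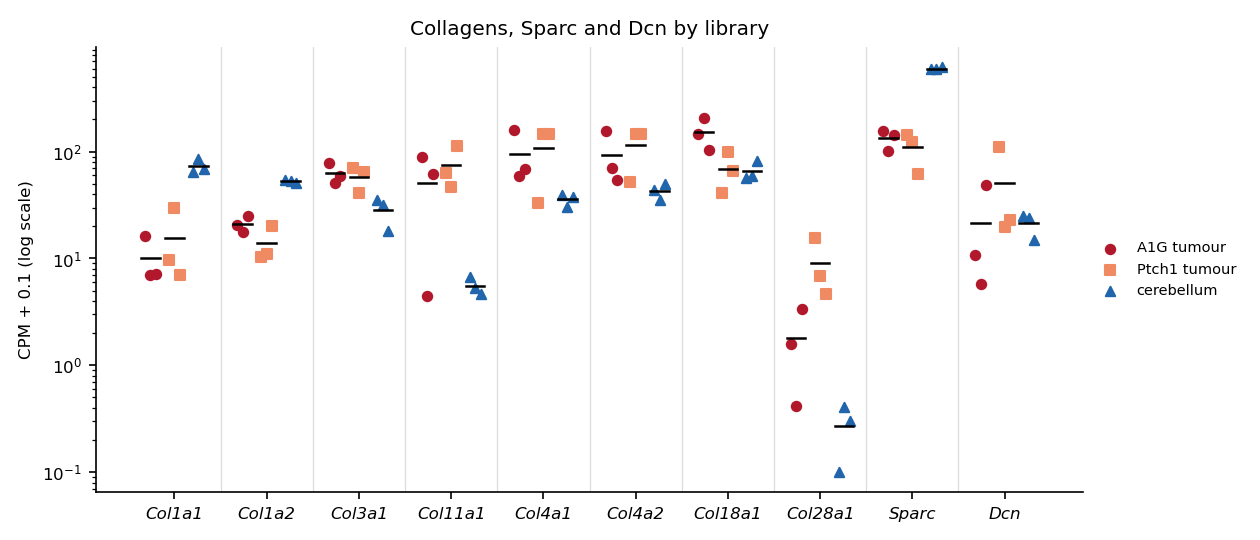
CPM plus 0.1 on a log scale for 8 collagens, Sparc and Dcn, 1 point per library, with a line at each group's mean. Col1a1, Col1a2 and Sparc lie lower in all tumours than in cerebellum and Col3a1 and Col4a2 higher; 1 A1G tumour sits at 4.37 CPM in Col11a1, beside cerebellum.

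Small leucine-rich proteoglycans bind collagen fibrils and set their width. Dcn (decorin) was at 10.7, 5.61 and 48.5 CPM in the A1G tumours, 112, 19.4 and 23.0 CPM in the Ptch1 tumours and 24.9, 24.0 and 14.8 CPM in cerebellum. The tumours spread 19.9-fold, on both sides of cerebellum (log2 0.64, SE 0.68, adjusted p = 0.474). Lum (lumican), its neighbour 46984 bases away on chromosome 10, was highest and lowest in the same libraries: 6.63, 1.56 and 9.87 CPM in the A1G tumours, 29.5, 7.64 and 13.0 CPM in the Ptch1 tumours and 3.41, 6.39 and 1.80 CPM in cerebellum (log2 1.39, SE 0.65, adjusted p = 0.107). Without A1G replicate 2 Lum passed (log2 1.63, adjusted p = 0.0383). Bgn (biglycan) overlapped, at 7.98 to 30.4 CPM in tumours and 13.1, 11.2 and 17.0 CPM in cerebellum (log2 0.22, SE 0.40, adjusted p = 0.689). Fmod (fibromodulin) was at 0 to 4.05 CPM in tumours and 6.57, 11.9 and 15.8 CPM in cerebellum, without overlap (log2 -2.79, SE 0.61, adjusted p = 0.00274).

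Markers of meningeal and perivascular fibroblasts, cells that make many of these fibril proteins, are given beside them. Of 12 markers 11 were tested, 4 were lower (Slc6a13, Igf2, Aebp1 and Crabp2) and 1 was higher (Foxd1), and summed levels were 111 to 210 CPM in tumours and 188 to 259 CPM in cerebellum, with no marker at 0 throughout either side. The highest tumour sum was that of A1G replicate 2, where Twist1 alone was at 100 CPM against at most 0.916 CPM in the other tumours. The part of these cells in the falls of Col1a1, Col1a2 and Fmod was not tested.

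Set against cerebellum separately, the tumour kinds gave values that share the cerebellum libraries. In A1G tumours 6 members were higher (16.3% of all tested genes were called higher) and 8 lower (16.1% of all tested genes). In Ptch1 tumours 10 were higher (20.2% of all tested genes) and 12 lower (19.7% of all tested genes). Col18a1 passed in A1G tumours (log2 1.21, adjusted p = 0.0216; 0.0694 without A1G replicate 2 and 0.0730 without cerebellum replicate 1) and had a log2 of 0.07 in Ptch1 tumours (adjusted p = 0.896). Tnr passed in Ptch1 tumours (log2 -2.38, adjusted p = 0.00108) and had a log2 of -1.03 in A1G tumours (adjusted p = 0.0822). Bcan likewise passed in Ptch1 tumours (log2 -1.39, adjusted p = 0.0148), with -0.73 in A1G tumours (adjusted p = 0.181). Lum passed in Ptch1 tumours (log2 2.13, adjusted p = 0.0323), with 0.64 in A1G tumours (adjusted p = 0.542). The Ptch1 call of Bcan was lost in 3 of 18 alternative fits and that of Lum in 5 of 18 (adjusted p = 0.180 without Ptch1 replicate 1). Passing in 1 kind alone does not show that the kinds differ, which the direct comparison tests.

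Single libraries moved the count in Ptch1 tumours. In Ptch1 tumours the higher count fell to 5 without cerebellum replicate 2, and to 6 without cerebellum replicate 1, cerebellum replicate 3 or Ptch1 replicate 3. Shares over all tested genes are not given for these fits either.

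Between A1G and Ptch1 tumours no member passed the test by edgeR or by DESeq2 (0.0139% of all tested genes did by edgeR). At an unadjusted p under 0.05 the edgeR fit held 7 of the 42 members, beside 10.6% of all tested genes. In 4 members all A1G libraries lay above all Ptch1 libraries (6.69% of all tested genes) and in 2 all lay below (8.84% of all tested genes). The 5 members with the smallest p are described with their values.

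Col18a1 was at 145, 206 and 103 CPM in the A1G libraries, 40.5, 99.0 and 65.9 CPM in the Ptch1 libraries and 56.2, 59.0 and 80.9 CPM in cerebellum. All A1G libraries were above all Ptch1 libraries, narrowly between 103 and 99.0 CPM (log2 1.14, SE 0.36, adjusted p = 0.325). Tnr, with the values given above, had a log2 of 1.36 (SE 0.43, adjusted p = 0.328), and A1G replicate 2 lay within the Ptch1 range. Col28a1 was lower in all A1G than in all Ptch1 libraries (log2 -2.44, SE 0.82, adjusted p = 0.342). Col17a1, at 1.11, 0.624 and 5.35 CPM in the A1G libraries against 0, 0.562 and 0 CPM in the Ptch1 libraries, had a log2 of 2.94 (SE 1.06, adjusted p = 0.373). Hapln2, low in both, had a log2 of 2.59 (SE 0.95, adjusted p = 0.381). An adjusted p above the threshold does not show that the tumour kinds are alike.

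The tumour libraries with the highest and lowest values were counted over the members. The same counts over all tested genes are not given, so these are not a result about the members. Of the 42 tested members, A1G replicate 3 and Ptch1 replicate 1 were the highest tumour library in 10 each, and Ptch1 replicate 2, the deepest library, in 2. Ptch1 replicate 2 was the lowest in 13, and A1G replicate 2 and Ptch1 replicate 1 in 12 each. Dcn, Lum, Col6a1, Col6a2, Col16a1 and Col28a1 were all highest in Ptch1 replicate 1, while Col4a1, Col4a2 and Col19a1 were among the members lowest there.

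Enzymes that make and trim collagen included genes called in each direction, in shares near those of all tested genes. Of 28 listed genes for collagen hydroxylation, folding, trimming and cross-linking, 24 were tested, 6 were higher in tumours (25.0%; 20.7% of all tested genes) and 5 lower (20.8%; 21.5% of all tested genes). Adamts14, a protease that removes the amino-terminal propeptide of fibrillar procollagens, was at 51.8 to 93.1 CPM in tumours (median 64.9) and 0.525, 0.304 and 0 CPM in cerebellum (log2 7.89, SE 0.54, adjusted p = 6.69e-07). Its relatives with the same known activity went the other way. Adamts3 was at 0.112 to 16 CPM in tumours and 23.1, 27.4 and 45.1 CPM in cerebellum (log2 -4.16, SE 0.63, adjusted p = 2.12e-04), and Adamts2 had a log2 of -2.57 (SE 0.60, adjusted p = 0.00444). Loxl1, a lysyl oxidase that cross-links matrix fibres, was uneven in tumours, at 53.4, 44.6 and 18.5 CPM in A1G and 2.98, 66.2 and 8.05 CPM in Ptch1 libraries, against 0.525, 2.13 and 1.2 CPM in cerebellum (log2 4.64, SE 1.01, adjusted p = 0.00276).

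Ppib, the prolyl isomerase cyclophilin B that speeds folding of the triple helix, was at 323 to 492 CPM in tumours and 152, 91.8 and 72.5 CPM in cerebellum (log2 1.91, SE 0.28, adjusted p = 1.50e-04). Plod2, a lysyl hydroxylase that prepares cross-links, rose too (log2 1.86, SE 0.35, adjusted p = 0.00106). Pcolce2, which enhances removal of the carboxy-terminal propeptide, fell (log2 -3.33, SE 1.01, adjusted p = 0.0190), although A1G replicate 1, at 5.16 CPM, lay within the cerebellum range of 3.99 to 6.69 CPM, and in A1G tumours alone it did not pass (adjusted p = 0.327). The prolyl hydroxylase subunit gene P4ha2 fell too (log2 -2.22, SE 0.60, adjusted p = 0.0102).

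Genes for the sugar chains of the mesh follow. Of 25 listed genes for hyaluronan and chondroitin sulfate synthesis, 23 were tested, 4 were higher and 4 lower (17.4% each; 20.7% and 21.5% of all tested genes). Among the hyaluronan synthase genes Has2 and Has3 were higher. Has2 was at 2.18 to 7.37 CPM in tumours and 0, 0 and 0.599 CPM in cerebellum (log2 4.17, SE 0.93, adjusted p = 0.00326), and Has3 at 18.8 to 38.3 CPM and 7.09, 8.21 and 7.39 CPM (log2 1.89, SE 0.31, adjusted p = 3.45e-04). Chsy1, a chondroitin synthase that lengthens the chain, was at 129 to 315 CPM in tumours and 44.6, 32.8 and 31.3 CPM in cerebellum (log2 2.66, SE 0.29, adjusted p = 1.72e-05). Xylt2, which starts chains on the core protein, had a log2 of 0.93 (SE 0.27, adjusted p = 0.0136).

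Other genes of this list fell. B3gat3, which completes the linker between core protein and chain, was at 21.3 to 41.2 CPM in tumours and 84.6, 77.2 and 80.1 CPM in cerebellum (log2 -1.60, SE 0.24, adjusted p = 1.79e-04). Chpf, a partner of the chondroitin synthases, fell (log2 -1.38, SE 0.30, adjusted p = 0.00259), as did the sulfotransferase genes Ust (log2 -1.10, SE 0.26, adjusted p = 0.00429) and Chst11 (log2 -1.09, SE 0.33, adjusted p = 0.0174). Between A1G and Ptch1 tumours 0 of the 47 tested genes of these lists passed by edgeR, and 8 had an unadjusted p under 0.05 (10.6% of all tested genes did). Adamts3 was higher in all A1G than in all Ptch1 libraries (log2 3.92, adjusted p = 0.268) and passed in the edgeR fit without a filter (adjusted p = 0.0222).

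The 17 members that were not tested lay at or under 11.3 CPM in every library. They were Acan and Hapln1, the fibril-forming Col2a1 and Col24a1, the collagen IV chains Col4a3, Col4a4 and Col4a6, and Col6a4, Col6a5 and Col6a6, Col7a1, Col8a2, Col13a1, Col14a1, Col22a1, Col25a1 and Col26a1. In the fit without a minimum, Hapln1 and Col8a2, a chain of the collagen VIII of vessels and cornea, passed the test. Col8a2 was at 0 to 1.60 CPM in tumours and 11.3, 4.56 and 2.0 CPM in cerebellum (log2 -3.52, adjusted p = 0.00152). Its highest value was in cerebellum replicate 1, the library with 2678 CPM of the choroid plexus transcript Ttr against 37.7 and 83.5 CPM in the other cerebellum libraries and at most 8.81 CPM in tumours. The part of choroid plexus in that value was not tested. The related Col8a1 was also highest in that cerebellum library, at 8.4 CPM against 4.56 and 0.998 CPM.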

How the data were processed

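Per the labels' protocols, ribosome-depleted RNA was sequenced on an Ion Proton (Ion Total RNA-Seq Kit V2), 3 libraries to a chip. No source used here assigns libraries to chips, so chips cannot be told apart from groups. Per the submitters' processing notes the build was mm10, and Bowtie 0.12.2 is named without its role; annotation, quantifier and strand use are not given in the sources used here. Per the file headers, the deposited expected counts are raw fragments per gene. The deposited signal columns are those fragments times 1 factor per library and were not used here. FPKM was computed by the authors and scaled separately for tumours and cerebellum, so its levels are compared within a library or group only. The minimum for the test and the limma alternatives did use FPKM across groups, and may carry the difference in scaling.

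Fragments were rounded and tested with edgeR 4.0.16 (quasi-likelihood, TMM over 9 libraries, 1 mean per group), with Benjamini-Hochberg adjustment over 14337 genes with FPKM of at least 1 in 3 libraries; the threshold was 0.05 and the SE is the log2 fold change divided by the root of F. The script was tested on simulated data. DESeq2 1.42.0 and limma 3.58.1 (log2 of FPKM plus 1 or 0.1) were alternatives, with R 4.3.3. CPM is TMM-scaled; a count of 0 allows up to 3 fragments, counting error only. Coordinates are from GENCODE M21 and promoters from RefSeq; 46 of 59 members matched a promoter window. Per-library values were given for all lecticans, tenascins and link proteins, for up to 4 tested members per class with the smallest p, and for the 5 with the smallest p between tumour kinds. Members and lists, including markers, were chosen with earlier results of these data known.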

Additional observations from a re-analysis of the deposited data

How the results depend on the processing

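The number of members called in tumours against cerebellum was 21 in the fit reported, 13 with FPKM of at least 5 required (22 members tested, 6 higher and 7 lower) and 19 to 25 under the other alternatives that kept all libraries. Leaving out 1 library at a time gave 17 to 23 for tumours, 10 to 17 for A1G tumours and 16 to 23 for Ptch1 tumours against cerebellum, 0 to 0 between tumour kinds, 8 to 13 for collagen processing genes and 7 to 10 for hyaluronan and chondroitin sulfate genes. The stricter minimum tests fewer genes. Shares over all tested genes are not given for these alternative fits or those below, so the counts are not a result about the members.

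In tumours against cerebellum, Ncan, Vcan, Hapln4, Hapln2, Sparc, Tnr, Col1a1, Col1a2, Col3a1 and Col11a1 passed in every alternative that tested them. So did Col11a2, Col17a1, Col19a1, Col28a1 and Fmod, and all kept their direction. This does not hold for each tumour kind alone: in A1G tumours Fmod missed the threshold in 5 of 17 alternatives. Of the members named, Col11a1 and Col28a1 met the minimum for the test only through tumours. Hapln2, Hapln4, Col11a2, Col17a1, Col19a1 and Fmod met it only through cerebellum. In tumours against cerebellum, besides the losses given with the results, Col4a1 missed the threshold with limma. Signs changed for members that did not pass. Fn1 had a log2 of 0.090 and 0.099 with limma at pseudocounts of 1 and 0.1, 0.048 without a filter, 0.022 with the replicate block and -0.22 to 0.42 leaving out 1 library. Col8a1 had -0.0018 with DESeq2 and -0.45 to 0.81 leaving out 1 library, Dcn -0.054 to 0.88, Bgn -0.033 to 0.41, Col6a1 -0.46 to 0.27 and Col6a2 -0.54 to 0.24. The causes were not tested.

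The labels do not say whether same-numbered libraries share more than a number. Their deviations from the group means correlated at -0.069 to 0.211 across genes, and those of differently numbered libraries at -0.253 to 0.239. These values cannot decide the question, since the deviations within a group of 3 libraries sum to 0. With the replicate number as a block, 21 members were called in tumours against cerebellum, 15 in A1G and 23 in Ptch1 tumours against cerebellum and 0 between tumour kinds; Lum missed the threshold in Ptch1 tumours (adjusted p = 0.0683), and Tnr passed in A1G tumours (0.0350).

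Depth limits members near 1 CPM: 3 fragments are 1.23 CPM in A1G tumour replicate 3 and 0.337 CPM in Ptch1 tumour replicate 2.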
